A study of Mus musculus with 6 samples.

Results

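The genes described here are 38 genes of ribosome assembly and of nucleotide and polyamine synthesis, taken as a list of symbols. All 38 were found in each of the 6 single-cell libraries, among 30406 features shared by every library (31053 listed in the MA9 matrices and 32285 in the HM matrices). By role, 12 members assemble the large ribosomal subunit and 6 the small subunit. The snoRNP group, of particles that carry small nucleolar RNAs, has 6 members, which are core proteins or, for Nolc1, their chaperone. A further 2 are abundant nucleolar proteins, 2 are subunits of RNA polymerase I, 3 make pyrimidines, 4 make purines, 1 is a nucleoside diphosphate kinase and 2 make polyamines. A cell was kept if 500 genes or more were detected in it and 10% or less of its UMIs (unique molecular identifiers, each 1 counted RNA molecule) were mitochondrial. The members' own values played no part in this filter on cells.

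The libraries were droplet 3′ profiles of whole bone marrow, after red cell lysis, from mice with acute myeloid leukaemia. The MA9 leukaemias carry the MLL-AF9 fusion, and the 4 MA9 libraries cross a floxed (f/f) or deleted (Δ/Δ) Shp-1 gene, Ptpn6, which encodes a tyrosine phosphatase, with PBS or AraC+Dox (cytarabine with an anthracycline, by the usual reading of the abbreviation). The 2 HM libraries carry Hoxa9 and Meis1, are f/f by their titles, and were given PBS or AraC+Dox. Per the labels' protocols the leukaemia genes were introduced into mouse embryonic stem cells. The Cre line, the deleted exons, the age of the mice, the doses and times, and the number of mice behind a library are not stated in the labels. The title of the series concerns an axis of Shp-1 and the glycolytic enzyme Pfkp in leukaemia stem cells under chemotherapy. Each group held 1 library and so had no replicates. No test between libraries was run, and every interval on a ratio between libraries covers counting error only.

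Ribosomes are built in the nucleolus, where RNA polymerase I transcribes the ribosomal RNA precursor. Nucleolar factors then cut, modify and fold it into the small and large subunits. The same growing cells need purines and pyrimidines for RNA and DNA, and polyamines, which bind nucleic acids. Many genes of these pathways are known targets of the transcription factor MYC, which pairs with MAX on the E-box CACGTG, while the MXD proteins pair with MAX and repress. In marrow, such genes are known to be high in dividing progenitors and to be shut down as neutrophils mature.

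The E-box was present near the start sites of a minority of the members, and these sites are shown because they are the letters MYC is known to bind, with 12 bases on each side, with the E-box in capitals. They come from RefSeq promoters on GRCm38.p6, each 250 bases before to 50 after a start site, read 5′ to 3′ on the gene's strand.
Nop2, chr6:125131811-125131840, plus strand: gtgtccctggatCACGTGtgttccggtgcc
Nme1, chr11:93968273-93968302, minus strand: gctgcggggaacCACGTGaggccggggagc
Nme1, other start site, chr11:93968037-93968066, minus strand: agcttgatacgcCACGTGggctcgcctttg
Impdh2, chr9:108560314-108560343, plus strand: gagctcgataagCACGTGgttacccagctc
Paics, chr5:76951087-76951116, plus strand: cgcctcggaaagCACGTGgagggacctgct
Pes1, chr11:3963965-3963994, plus strand: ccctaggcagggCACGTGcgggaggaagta
Wdr43, chr17:71616220-71616249, plus strand: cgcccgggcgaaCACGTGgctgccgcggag

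The first E-box base lay 60 bases before the start site in Nop2, 18 and 29 in Nme1, 110 in Impdh2 and 203 in Paics, and after it in Pes1 and Wdr43. Of the 38 members 32 had a promoter in the table, and 7 of these 32 (21.9%) held CACGTG, the seventh being Utp20. The same window held it in 8.09% of all 27025 genes listed. The letters CCGGAAG, on either strand, the core bound by ETS factors, were in 8 of 32 members (25%) and in 9.93% of all genes. CACGTG reads the same on both strands, and matches to the 2 motifs cannot share a base. A match describes the letters only, and whether MYC occupies these sites was not measured. Paics and Ppat, which catalyse steps of purine synthesis, lie head to head: in GENCODE vM21 (GRCm38) Paics spans chr5:76951307-76967509 on the plus strand and Ppat chr5:76913249-76951578 on the minus strand, so their first parts overlap.

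After filtering, 44672 cells remained, from 2755 (HM PBS) to 9750 per library, with 15111411 to 103581646 UMIs and a median of 4021 to 10112.5 UMIs per cell. Barcodes shared between kept cells of 2 libraries numbered at most 27. In the HM PBS library only 22.1% of barcodes passed, since 74.7% exceeded the mitochondrial limit. The targeted gene, Ptpn6, went against 2 labels. Its level in CPM (UMIs per 1e6 UMIs of the library) was 186 and 172 in the PBS libraries labelled f/f and Δ/Δ, and 57.7 and 43.6 in the AraC+Dox libraries labelled f/f and Δ/Δ. In MA9 the low and high levels thus followed treatment rather than genotype as labelled, against the labels Δ/Δ PBS and f/f AraC+Dox. In HM, where both libraries are f/f, Ptpn6 was 135 CPM with PBS and 113 with AraC+Dox. A 3′ tag outside the deleted exons would check nothing. Every group name here is only the label. Should these 2 labels be swapped, each MA9 pair described as deletion would be a pair of treatments, and the reverse, with the same values. HM libraries were quantified against another feature list than MA9, so levels set across the 2 leukaemias also carry that difference. The strand used in counting is not stated, and 18 members overlap a gene on the opposite strand.

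Across the 4 MA9 libraries every one of the 38 members was higher in both libraries labelled Δ/Δ than in both labelled f/f. The summed level of the members was 3228 and 3391 CPM with the label f/f (PBS, then AraC+Dox), and 6029 and 7129 CPM with the label Δ/Δ. In HM the sum was 1943 CPM with PBS and 4101 with AraC+Dox. Among kept cells, which were only 22.1% of barcodes in HM PBS, the HM PBS library was the lowest of the 6 for 33 members. That with the label MA9 Δ/Δ AraC+Dox was the highest for 35.

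**Figure D1:**
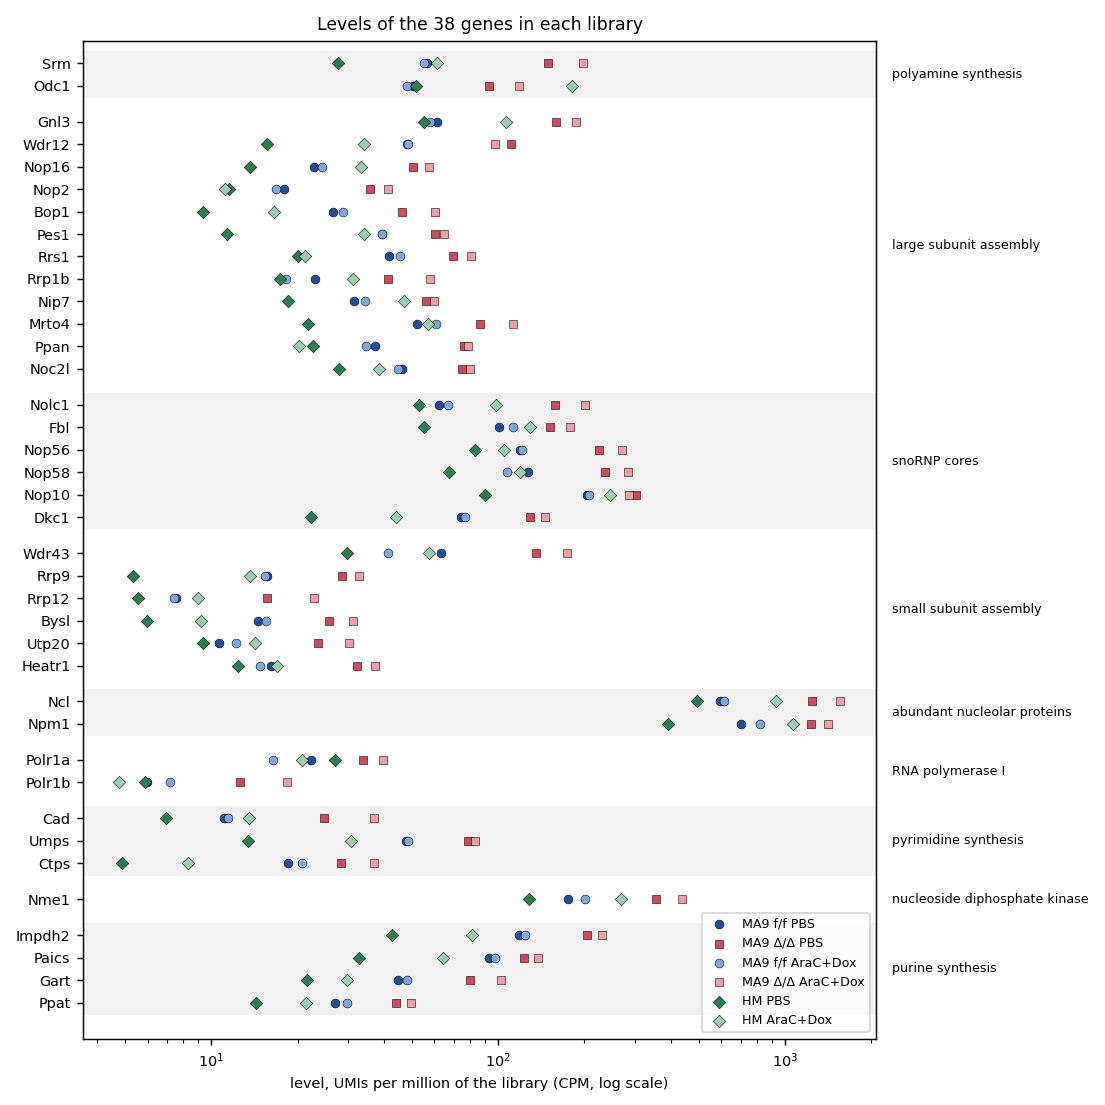
Level of each of the 38 genes (CPM, log scale) in each of the 6 libraries, grouped by role, 1 point per library. The squares of both libraries labelled MA9 Δ/Δ lie to the right of both f/f circles for all 38 genes.

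A difference between 2 libraries was counted where it reached 1.5-fold, its exact 95% interval excluded no difference, and the gene reached 5 CPM in either library, a rule of size and not a test. Under PBS, 36 of the 38 members were higher in the library labelled Δ/Δ, against 15.1% of all genes, and 0 were lower, against 8.75%. Under AraC+Dox the counts were again 36 higher, against 16.6% of all genes, and 0 lower, against 12.7%. The same 36 members were counted in both pairs, which share no library, and the ratio was larger under AraC+Dox for 34 of 38. The members' median log2 ratio was 0.86 under PBS and 1.10 under AraC+Dox, where that of all genes was 0.15 and 0.04. Removing the shift of all genes left 28 members counted under PBS. The members that missed 1.5-fold in both pairs were Nop10 and Paics.

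Cell composition moved with these pairs. Promyelocyte-like cells (the gates are defined below) made up 31.6% and 39.7% of kept cells in MA9 f/f as labelled (PBS, then AraC+Dox), against 41.8% and 57.3% in those labelled Δ/Δ. Immature neutrophil-like cells made up 38.8% and 30.3% against 4.11% and 2.68%. In a library sum, more cells of a type and more RNA of a gene per cell cannot be told apart.

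Of the polyamine enzymes, Srm was among the members furthest apart. Srm, spermidine synthase (chr4:148591503-148594993), stood at 56.6 and 55.3 CPM in MA9 f/f (by label, PBS then AraC+Dox, as in all pairs of values here), at 149.5 and 198 CPM in MA9 Δ/Δ, and at 27.7 and 61.0 CPM in HM. Both Δ/Δ values lay above every other library. Its log2 ratio was 1.40 (95% interval 1.35 to 1.46) under PBS, the largest of the 38, and 1.84 (1.79 to 1.88) under AraC+Dox. Odc1, ornithine decarboxylase, which makes the first polyamine, was 50.6 and 48.1 CPM in MA9 f/f, 92.6 and 118 in MA9 Δ/Δ, and 51.8 and 182 in HM. The HM AraC+Dox library, not an MA9 library, held the highest Odc1 level.

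Among large subunit factors the log2 ratios ran from 0.62 to 1.37 under PBS and from 0.71 to 1.69 under AraC+Dox. Gnl3, nucleostemin, a nucleolar GTPase, was 61.4 and 57.7 CPM in MA9 f/f, 159 and 187 in MA9 Δ/Δ, and 55.0 and 107 in HM. The 2 Δ/Δ libraries again stood above the rest. Wdr12, which with Pes1 and Bop1 forms the PeBoW complex, was 48.3 and 48.4 CPM in MA9 f/f and 111 and 97.8 in MA9 Δ/Δ, with ratios of 1.20 (1.14 to 1.26) under PBS and 1.01 (0.96 to 1.07) under AraC+Dox. Of its partners, Pes1 had 0.62 (0.55 to 0.68) and 0.71 (0.65 to 0.77), and Bop1 had 0.80 (0.72 to 0.88) and 1.07 (1.001 to 1.14). The intervals of Wdr12 and Pes1 did not overlap in either pair. Nop16, a nucleolar protein of the large subunit, had a ratio of 1.15 (1.07 to 1.24) under PBS. Rrp1b, another, had 1.66 (1.58 to 1.74) under AraC+Dox.

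The snoRNP cores comprise box C/D proteins (Fbl, Nop56 and Nop58, which methylate ribosomal RNA) and box H/ACA proteins (Dkc1 and Nop10, which convert uridines to pseudouridines), and low ratios were found in both kinds. Nolc1, the chaperone of both kinds, was 62.3 and 66.9 CPM in MA9 f/f, 157 and 200.1 in MA9 Δ/Δ, and 52.9 and 98.6 in HM. Its ratios of 1.34 (1.29 to 1.39) and 1.58 (1.54 to 1.62) were the highest of the 6 members in the snoRNP group. Nop10, the small H/ACA subunit, was 203 and 207 CPM in MA9 f/f and 303 and 286 in MA9 Δ/Δ. Its ratios of 0.57 (0.54 to 0.60) and 0.47 (0.44 to 0.50) were the lowest of the 6, and the methyltransferase Fbl came next with 0.59 (0.55 to 0.63) and 0.65 (0.62 to 0.69). Dkc1, the pseudouridine synthase to which Nop10 binds, had 0.80 (0.75 to 0.84) and 0.93 (0.88 to 0.97).

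Small subunit factors had ratios of 0.82 to 1.14 under PBS and of 1.01 to 2.07 under AraC+Dox. Wdr43 (chr17:71615895-71659031), a part of the early small subunit processome, was 63.3 and 41.4 CPM in MA9 f/f, 136 and 174 in MA9 Δ/Δ, and 29.8 and 57.5 in HM. Its AraC+Dox ratio of 2.07 (2.02 to 2.13) was the largest of all 38. With the label f/f the AraC+Dox value was the lower, and with the label Δ/Δ it was the higher. Rrp12, needed for export of pre-ribosomes, followed with 1.62 (1.49 to 1.75) under AraC+Dox and 1.06 (0.91 to 1.21) under PBS.

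The abundant nucleolar proteins gave the most counts and so the narrowest intervals. Ncl, nucleolin, stood at 593 and 615 CPM in MA9 f/f, 1240 and 1555 in MA9 Δ/Δ, and 493 and 933 in HM. Npm1, nucleophosmin, stood at 701 and 815 CPM in MA9 f/f, 1234 and 1416 in MA9 Δ/Δ, and 389 and 1069 in HM. Both genes ranked the 6 libraries in the same order. The ratios of Ncl were 1.07 (1.05 to 1.08) and 1.34 (1.32 to 1.35), those of Npm1 0.82 (0.80 to 0.83) and 0.80 (0.78 to 0.81).

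Polr1a, the largest subunit of RNA polymerase I (chr6:71909053-71984935, plus strand), was 22.3 and 16.4 CPM in MA9 f/f, 33.8 and 39.6 in MA9 Δ/Δ, and 26.9 and 20.8 in HM. Polr1b, the second largest, was 5.99 and 7.19 CPM in MA9 f/f, 12.6 and 18.3 in MA9 Δ/Δ, and 5.89 and 4.78 in HM. The RNA polymerase I subunits were thus above the f/f level in both MA9 Δ/Δ libraries, but Polr1a was above its MA9 f/f PBS level in HM PBS as well, as only Odc1 was among the other members. The gene models Gm19078 and Gm26628 overlap Polr1a on the opposite strand.

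Nucleotide synthesis genes were spread from the lowest to nearly the highest ratios. Cad, which carries the first 3 activities of pyrimidine synthesis, was 11.1 and 11.5 CPM in MA9 f/f, 24.7 and 36.9 in MA9 Δ/Δ, and 6.95 and 13.6 in HM, with ratios of 1.16 (1.03 to 1.28) and 1.68 (1.58 to 1.79). Later enzymes of that pathway lay lower, Umps at 0.72 (0.66 to 0.78) and 0.78 (0.72 to 0.83) and Ctps, CTP synthase, at 0.61 (0.51 to 0.71) and 0.83 (0.75 to 0.92). Nme1, which passes phosphate between nucleotides, had 1.019 (0.99 to 1.05) and 1.12 (1.10 to 1.15). Nme1 overlaps the read-through gene model Gm20390 on its own strand, so its counts could be split between models, which makes its part in any count or sum across HM and MA9 uncertain.

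Of the purine enzymes, Gart had the largest ratios, 0.83 (0.77 to 0.90) and 1.09 (1.03 to 1.14). Paics was 93.2 and 97.3 CPM in MA9 f/f and 123 and 137 in MA9 Δ/Δ, and its ratios of 0.40 (0.36 to 0.45) and 0.50 (0.46 to 0.54) were among the 2 lowest of the 38 in both pairs. Its head-to-head neighbour Ppat had 0.71 (0.63 to 0.79) and 0.73 (0.66 to 0.80), above Paics beyond counting error. Impdh2, the step toward guanine nucleotides, had 0.78 (0.74 to 0.82) and 0.88 (0.85 to 0.92).

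**Figure D2:**
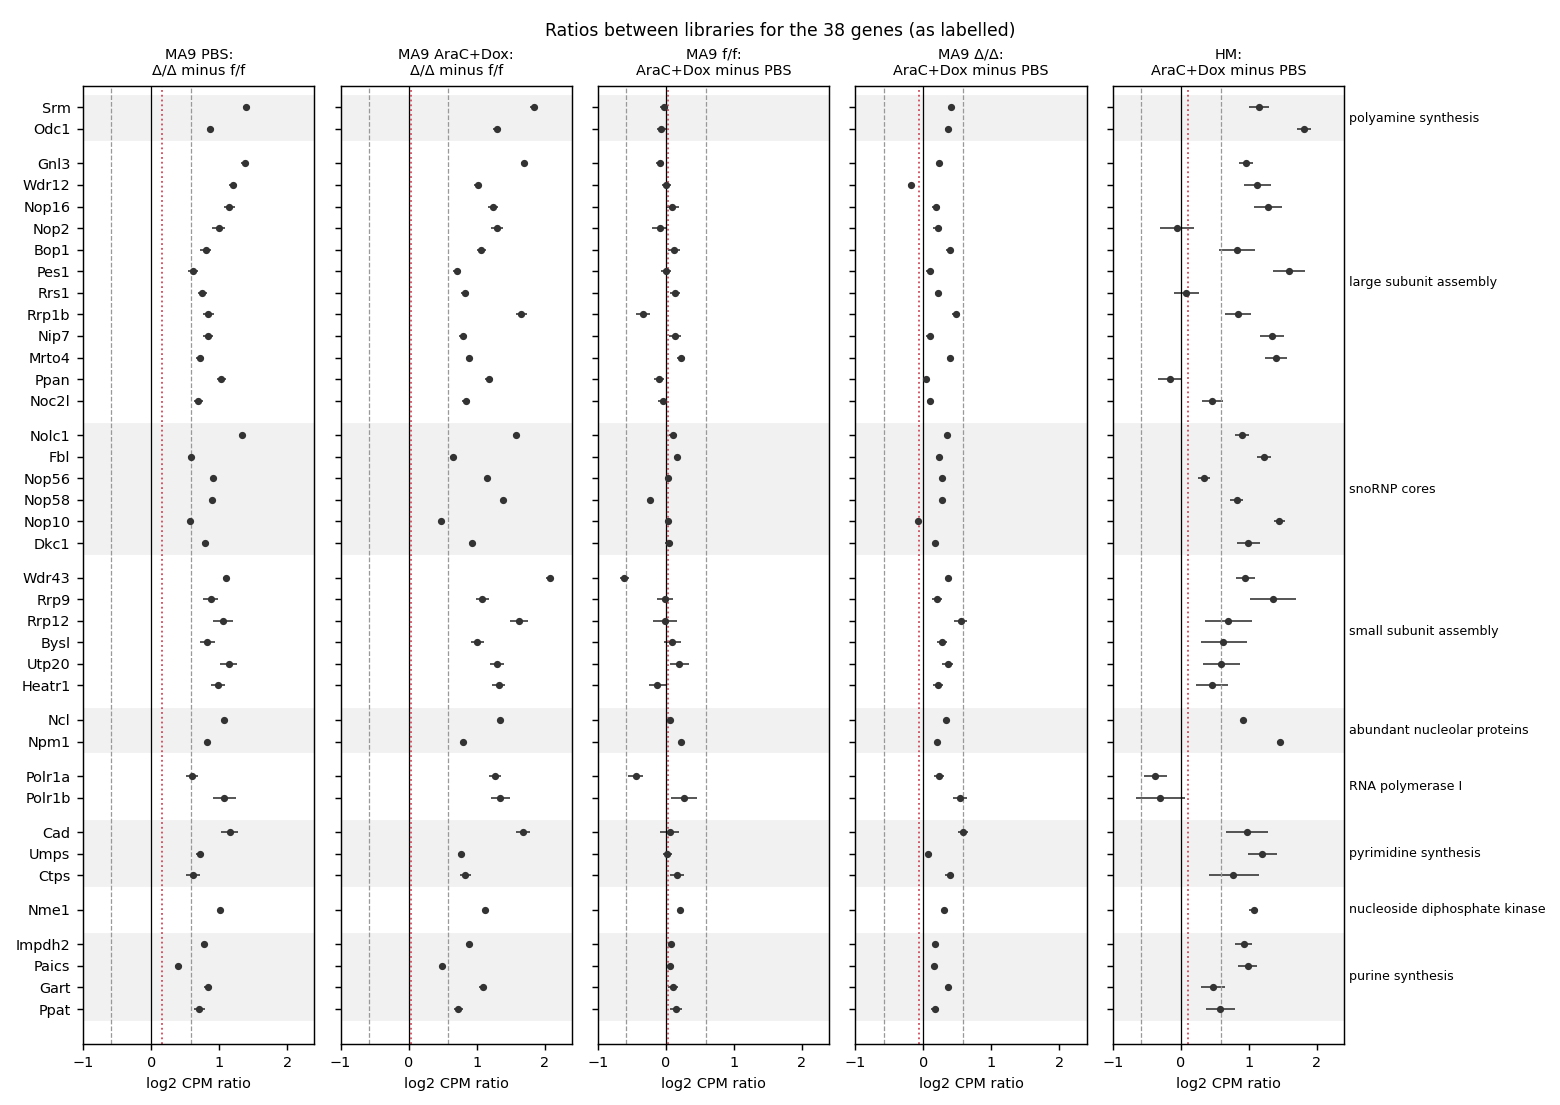
Log2 CPM ratio of each of the 38 genes in 5 pairs of libraries as labelled, with exact 95% intervals for counting error. Dashed lines mark 1.5-fold and the dotted red line the median of all genes; all 38 points lie above 0 in the first and second panels.

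Between AraC+Dox and PBS libraries of 1 MA9 label the members differed far less. These pairs share libraries with those above. In the pair labelled f/f, 0 members were higher, against 1.89% of all genes, and 1 was lower, against 3.58%. That member was Wdr43, with a log2 ratio of -0.61 (-0.68 to -0.55), followed by Polr1a at -0.45 (-0.56 to -0.34) and Rrp1b at -0.34 (-0.44 to -0.23). At the other end Polr1b stood at 0.26 (0.08 to 0.45), and Wdr12, Pes1 and Rrp9 were nearest to 0. For 14 members the interval included 0. The median over members was 0.05, that of all genes 0.03.

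In the pair labelled Δ/Δ, 0 members were higher, against 3.59% of all genes, and 0 lower, against 7.44%. Yet 36 of 38 stood above 0, with a median of 0.23 where all genes had -0.07. Cad was nearest to the threshold at 0.58 (0.50 to 0.66), then Rrp12 and Polr1b at 0.54. Wdr12 at -0.18 (-0.22 to -0.14) and Nop10 at -0.08 (-0.10 to -0.06) stood below 0. Shifting by the median of all genes put 3 members past 1.5-fold.

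In HM, 28 members were higher with AraC+Dox, against 28.2% of all genes, and 0 were lower, against 20.2%. The median log2 ratio was 0.92 over members and 0.10 over all genes. Of the 36 members counted in both MA9 pairs labelled as deletion, 26 were among these 28. Odc1 led at 1.81 (1.70 to 1.92), ahead of Pes1 at 1.59 (1.36 to 1.82), Npm1 at 1.46 (1.42 to 1.497) and Nop10 at 1.45 (1.37 to 1.53). Pes1, Nop10 and Npm1, each below the members' median in both MA9 pairs labelled as deletion, were thus among the larger ones here. Both RNA polymerase I subunits stood below 0, Polr1a at -0.37 (-0.54 to -0.21) and Polr1b at -0.30 (-0.66 to 0.06). Nop2, the rRNA methyltransferase, stood at -0.06 (-0.30 to 0.20), Rrs1 at 0.08 (-0.11 to 0.27) and Ppan at -0.17 (-0.34 to 0.01), so 4 intervals included 0. These ratios are of kept cells, and in HM PBS only 22.1% of barcodes were kept. Per 1e6 non-mitochondrial UMIs the members' sum was 5100 CPM in the removed HM PBS barcodes and 1988 in its kept cells. In kept HM AraC+Dox cells it was 4164. The part of the filter in the HM ratios was not tested.

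The HM libraries also differed in their cells. T cell-like cells were 35 of 2755 with PBS and 724 of 4676 with AraC+Dox, and mature neutrophil-like cells were 40.3% and 20.8% of kept cells. The members' summed level was 611 and 619 CPM in mature neutrophil-like cells, 775 and 939 CPM in immature neutrophil-like cells, 7811 and 8419 CPM in promyelocyte-like cells and 4667 and 4089 CPM in monocyte-like cells (PBS, then AraC+Dox). Within these gates the sums thus differed far less than the 1943 and 4101 CPM of the whole libraries, and in monocyte-like cells the other way. In T cell-like cells the sum was 4448 and 6080 CPM. HM promyelocyte-like cells were few (64 and 220) and very deep with AraC+Dox (median 54624.5 UMIs, against 15094.5 with PBS). With AraC+Dox 0.909% of them were called doublets, but at a threshold taken from MA9 libraries. The automatic threshold had marked 0.0428% of that library's kept cells, so this share says little about doublets.

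To place the members in cell types, cells were gated by the summed level of marker genes, none of them a member. Of the kept cells 38832 entered a gate, and 22.9% of kept cells lay near a threshold of the gates. At least 30 cells were found in all 6 libraries for promyelocyte-like (Mpo, Elane, Prtn3, Ctsg, Ms4a3), immature neutrophil-like (Camp, Ngp, Ltf, Lcn2, Chil3, Ly6g), mature neutrophil-like (led by Cxcr2, Mmp9 and Retnlg) and monocyte-like cells (led by Csf1r, Fn1 and F13a1). The progenitor gate (Cd34, Kit, Flt3 and others) had 30 cells in 3 libraries only. With the label MA9 f/f PBS that gate was led by the platelet genes Pf4 and Itga2b, with 0 of its own markers among the 10 top genes, so the cells stay unnamed there.

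The members were lowest in mature neutrophil-like cells in all 6 libraries and highest in promyelocyte-like cells in 5 of 6. In promyelocyte-like cells the summed level was 4493 and 4265 CPM in MA9 f/f, 7040 and 7802 in MA9 Δ/Δ, and 7811 and 8419 in HM. In mature neutrophil-like cells it was 464 and 361 CPM, 817 and 1025 CPM, and 611 and 619 CPM in the same order. The ranges do not overlap, and the promyelocyte-like level was 7.61 to 13.6 times the mature one within a library. The exception was MA9 f/f AraC+Dox by label, where the T cell-like level of 4315 CPM (4007 to 4641) had an interval that held the promyelocyte-like level. Monocyte-like cells held 2801 to 5503 CPM, T cell-like cells 3524 to 6080 CPM and immature neutrophil-like cells 775 to 2203 CPM.

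**Figure D3:**
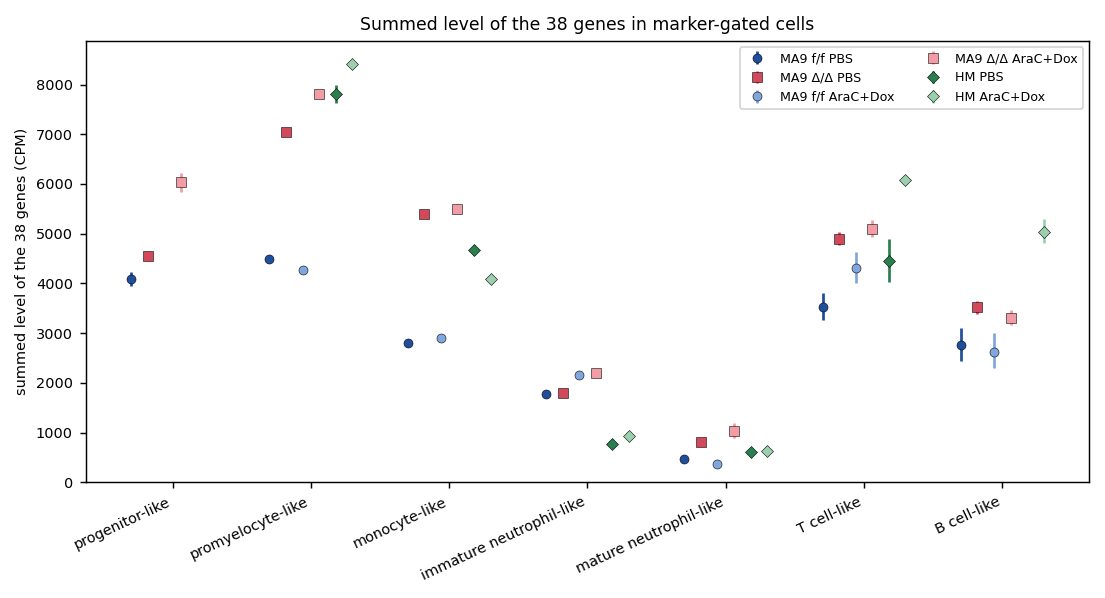
Summed level of the 38 genes (CPM) in gated cells, 1 point per library with at least 30 cells, bars exact 95% counting intervals. Promyelocyte-like cells of both libraries labelled MA9 Δ/Δ lie above those labelled f/f, and mature neutrophil-like cells are the lowest gate within each library. In MA9 f/f PBS the progenitor gate is not led by its own markers.

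Free RNA in droplets can add counts to any gate, and 2 markers of other gates, Mpo and Camp, give a partial measure. Cells rich in either marker could be kept out of other gates by the gating rule, which can lower these shares. Camp in mature neutrophil-like cells could also be their own RNA. Mpo, made by promyelocytes, reached in T cell-like cells 0.583% to 2.72% of its promyelocyte-like level, and in mature neutrophil-like cells 0.818% to 2.83%. In B cell-like cells it reached 2.78% to 5.13%. Camp reached in T cell-like cells 0.110% to 6.06% of its immature neutrophil-like level, and in mature neutrophil-like cells 0.268% to 6.35%. The members' sum reached 56.9% to 101% of the promyelocyte-like level in T cell-like cells and 7.36% to 13.1% in mature neutrophil-like cells.

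Differences between gates were tested on summed UMIs per library and gate, with the 6 libraries as replicates and library as a block (edgeR quasi-likelihood test, Benjamini-Hochberg adjustment over 11559 genes). These libraries differ in leukaemia, label and treatment, so the spread includes those differences. Against mature neutrophil-like cells, promyelocyte-like cells had 37 of 38 members higher, where 43.2% of all genes were, and 0 lower, where 30.8% were (also 0 by DESeq2 and at an unadjusted p under 0.05). The members' median log2 fold change was 2.87, that of all genes 0.37, and 37 members were higher in 6 of 6 libraries. Paics rose most, by 3.94 ± 0.35 (SE; adjusted p = 3.4e-10, edgeR), then Wdr12 by 3.82 ± 0.27, Cad by 3.72 ± 0.54, Ctps by 3.72 ± 0.55 and Nop16 by 3.69 ± 0.43. So the member with the smallest ratio between MA9 libraries under PBS, Paics, had the largest fold change between gates. The leading members were near the floor in mature neutrophil-like cells. Their median levels there were 3.67 CPM for Paics, 4.15 for Wdr12, 1.07 for Cad, 0 for Ctps and 2.78 for Nop16. The order of the largest fold changes against that gate, here and below, thus rests on low counts. The smallest were Polr1a at -0.58 ± 0.31 (adjusted p = 0.094, edgeR), Nop2 at 1.54 ± 0.31 and Bysl at 1.78 ± 0.30.

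Monocyte-like cells had 36 members higher (40.6% of all genes) and 1 lower (29.2%), with a median of 2.19, and 37 were higher in 6 of 6 libraries. Paics again led at 3.57 ± 0.35, followed by Nop16 at 3.02 ± 0.44, Impdh2 at 2.93 ± 0.32, Ctps at 2.81 ± 0.59 and Nme1 at 2.77 ± 0.35. The smallest were Nop2 at 0.74 ± 0.32, Polr1b at 0.91 ± 0.46, which did not pass, and Odc1 at 0.93 ± 0.24. Immature neutrophil-like cells had 29 higher (32.4%) and 1 lower (23.2%), with a median of 1.26, and 23 were higher in 6 of 6 libraries. There Paics stood at 2.83 ± 0.36, Ctps at 2.75 ± 0.60, Ppat at 2.41 ± 0.46, Nop58 at 2.02 ± 0.33 and Rrp12 at 1.89 ± 0.47. Purine and pyrimidine enzymes thus took the first 3 places among the members in immature neutrophil-like cells. Their median mature neutrophil-like levels were only 3.67 CPM (Paics), 0 (Ctps) and 1.97 (Ppat), so this order is uncertain. Members that did not pass there included Ppan at 0.16 ± 0.34, Nop2 at 0.18 ± 0.33 and Rrp1b at 0.40 ± 0.31. Without both libraries whose label Ptpn6 goes against, 22 members were higher in immature neutrophil-like cells. Cells high in mitosis genes made up 13.5% to 35.2% of immature and at most 0.243% of mature neutrophil-like cells. Among cells low in mitosis genes the immature sum was 1178 against 452 CPM and 1633 against 359 CPM in MA9 f/f. It was 830 against 793 CPM and 1206 against 1025 CPM in MA9 Δ/Δ, and 433 against 487 CPM and 706 against 610 CPM in HM. The test was not run on such cells alone.

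The progenitor gate had 35 members higher (35.6%) and 1 lower (26.9%), with a median of 2.04 over 3 libraries. Without MA9 f/f PBS, where the gate stays unnamed, 35 were higher and 0 lower. Paics at 3.40 ± 0.40 and Wdr12 at 3.10 ± 0.31 had the largest fold changes, then Impdh2 at 2.72 ± 0.38, Nop58 at 2.70 ± 0.38 and Nme1 at 2.70 ± 0.41. Nop2 at 0.76 ± 0.39 did not pass, and Bysl at 0.87 ± 0.38 and Mrto4 at 0.99 ± 0.40 were the smallest that rose.

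**Figure D4:**
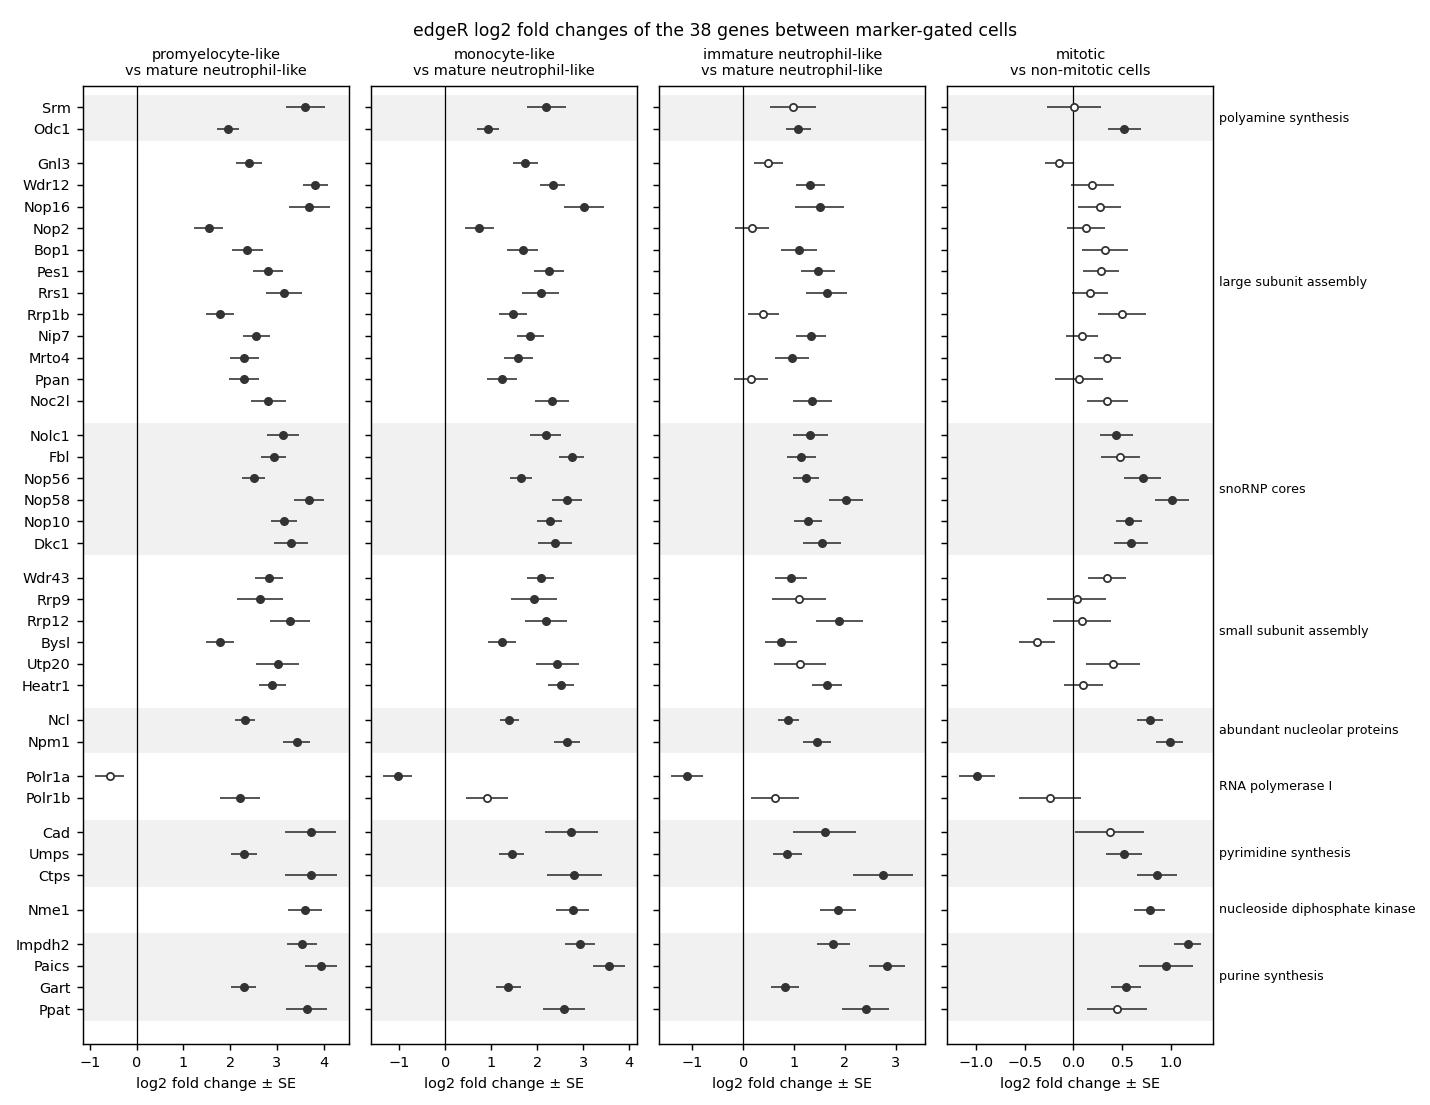
Log2 fold change ± SE of each of the 38 genes from edgeR, for 3 gates against mature neutrophil-like cells and for mitotic against non-mitotic immature neutrophil-like cells; filled points have an adjusted p under 0.05. Polr1a is the 1 gene left of 0 in every panel.

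Polr1a was the exception in each contrast. It was lower by the test in immature neutrophil-like cells (-1.11 ± 0.31, adjusted p = 0.0038, edgeR), monocyte-like cells (-1.04 ± 0.32, adjusted p = 0.0055) and the progenitor gate (-1.05 ± 0.42, adjusted p = 0.033). Its mature neutrophil-like level was 58.5 and 32.9 CPM in MA9 f/f and 36.8 and 24.5 CPM in HM, but from only 9 and 2 UMIs in MA9 Δ/Δ, where the intervals were 5.03 to 20.9 and 1.33 to 39.6 CPM. In promyelocyte-like cells Polr1a was 26.3 and 19.1 CPM in MA9 f/f, 30.4 and 27.0 CPM in HM, and 41.4 CPM in MA9 Δ/Δ AraC+Dox. Polr1a was above the mature neutrophil-like level in 3 of 6 libraries for promyelocyte-like cells, 2 of 6 for monocyte-like cells and 1 of 6 for immature neutrophil-like cells. Without MA9 f/f PBS the monocyte-like call was lost (adjusted p = 0.055, edgeR), as it was without HM PBS (adjusted p = 0.068). The progenitor-gate call was lost without any 1 of MA9 f/f PBS, MA9 f/f AraC+Dox, HM PBS or HM AraC+Dox (adjusted p of 0.22, 0.086, 0.14 and 0.055, edgeR). In promyelocyte-like cells Polr1a was lower by the test without MA9 Δ/Δ PBS (-0.91, adjusted p = 0.0052) and without MA9 Δ/Δ AraC+Dox (-0.89, adjusted p = 0.022).

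Within immature neutrophil-like cells, those high in mitosis genes were compared with those low in them, in all 6 libraries. The members' sum was higher in mitotic cells of each library, at 2090 against 1178 CPM and 2229 against 1633 CPM in MA9 f/f. It was 2384 against 830 CPM and 2426 against 1206 CPM in MA9 Δ/Δ, and 927 against 433 CPM and 1178 against 706 CPM in HM. By the test 14 members were higher, against 21.7% of 10257 genes, and 1 lower, against 23.6%. Impdh2 rose by 1.17 ± 0.14 (adjusted p = 9.9e-06, edgeR), Nop58 by 1.01 ± 0.17, Npm1 by 0.98 ± 0.14, Paics by 0.95 ± 0.27 and Ctps by 0.86 ± 0.21. Polr1a fell by 0.98 ± 0.18 on the log2 scale (adjusted p = 0.00062, edgeR). The members that rose were 5 of 6 in the snoRNP group, 6 of 8 nucleotide synthesis genes (Nme1 included), both abundant nucleolar proteins and Odc1. Of the 12 large and 6 small subunit factors 0 passed, with edgeR and with DESeq2. At an unadjusted p under 0.05 it was 1, Mrto4, at 0.34 ± 0.14 (adjusted p = 0.054, edgeR). Wdr43 passed without MA9 f/f AraC+Dox, Mrto4 without HM PBS and Rrp1b without HM AraC+Dox. Srm stood at 0.01 ± 0.28, Rrp9 at 0.03 ± 0.30 and Ppan at 0.06 ± 0.24. Without library as a block, 3 members were higher and 0 lower.

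The pairs labelled as deletion were then read within gates, and the result differed by gate. In promyelocyte-like cells 23 members were higher with the label Δ/Δ under PBS, against 8.22% of all genes, and 31 under AraC+Dox, against 12.5%, with median log2 ratios of 0.66 and 0.93. All 38 stood above 0 in both pairs. In monocyte-like cells 34 members were higher under PBS, against 12.9% of all genes, and 32 under AraC+Dox, against 15%, with medians of 1.01 and 1.05. The medians of all genes ran from -0.06 to 0.04 in these 4 comparisons. These gates also differed in Camp, a marker of immature neutrophil-like cells. In promyelocyte-like cells Camp was 4114 and 6971 CPM in MA9 f/f against 653 and 496 CPM in MA9 Δ/Δ. In monocyte-like cells it was 238 and 646 CPM against 21.5 and 14.4 CPM. The part of this difference in the counts was not tested.

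In immature neutrophil-like cells the members' sum was 1769 CPM in MA9 f/f and 1803 CPM in MA9 Δ/Δ under PBS, and 2161 and 2203 CPM under AraC+Dox. Of the 37 members that reached 5 CPM there, 2 were higher under PBS, against 7.24% of all genes, and 2 lower, against 5.86%. Under AraC+Dox 3 were higher, against 9.67%, and 2 lower, against 11.6%. Split by mitosis genes, the gate gave under PBS 0 higher and 11 lower of 34 members at 5 CPM in non-mitotic cells, against 8.63% and 10.1% of all genes. In mitotic cells it gave 7 higher and 0 lower of 38, against 6.73% and 5.75%. Under AraC+Dox it gave 1 higher and 10 lower of 38 in non-mitotic cells, against 9.49% and 11.2%, and 5 higher and 1 lower of 37 in mitotic cells, against 8.71% and 9.92%. The shares of higher members in mitotic and of lower members in non-mitotic cells were thus above those of all genes in both pairs. The gate held 388 and 253 cells with the label Δ/Δ, against 3338 and 2957 with the label f/f. The level of Camp, a marker of this gate, was 20989 and 20677 CPM there against 40442.5 and 46702 CPM, and the part of this difference in the counts was not tested.

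Among non-mitotic promyelocyte-like cells 18 and 22 members were higher with the label Δ/Δ (PBS, then AraC+Dox), against 10.3% and 17% of all genes, with medians of 0.55 and 0.71 and all 38 above 0. In mitotic ones 30 and 32 were higher, against 10.3% and 12.7%, with medians of 0.72 and 1.11. In T cell-like cells, of which MA9 f/f held only 59 and 41, the medians were 0.66 under PBS and 0.51 under AraC+Dox, with 4 and 6 members counted as higher, against 2.56% and 2.16% of all genes. Mpo in those T cell-like cells was 20.9 and 41.6 CPM in MA9 f/f against 58.8 and 153 CPM in MA9 Δ/Δ, and its part in these ratios was not tested. B cell-like cells, 36 and 35 in MA9 f/f, had 1 member higher under PBS, against 3.21% of all genes, and under AraC+Dox 1 higher, against 3.42%, and 1 lower, against 9.74%. The medians there were 0.35 and 0.07. The progenitor gate, unnamed in MA9 f/f PBS, had 3 members higher under PBS, against 5.9%, and a median of 0.18. In these B cell-like and progenitor-gate cells the members' shares thus lay near or below those of all genes.

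The MYC network did not move as 1 group. Myc stood at 34.9 and 30.0 CPM in MA9 f/f and 72.8 and 75.9 CPM in MA9 Δ/Δ, and at 10.7 and 9.16 CPM in HM. Its log2 ratio was 1.06 (0.99 to 1.13) under PBS and 1.34 (1.27 to 1.41) under AraC+Dox. Its partner Max stood at 55.7 and 49.0 CPM in MA9 f/f and at 52.4 and 50.2 CPM in MA9 Δ/Δ. In sums over whole libraries, the repressor partners Mxd1 and Mxi1 were lower with the label Δ/Δ. Mxd1 had a ratio of -0.99 (-1.06 to -0.93) under PBS and -0.91 (-0.98 to -0.83) under AraC+Dox. Mxi1 had -1.08 (-1.14 to -1.03) and -1.11 (-1.16 to -1.06). Of the 10 network genes at 5 CPM under PBS, 1 was higher, against 15.1% of all genes, and 3 lower, against 8.75%. Under AraC+Dox 1 of 9 was higher, against 16.6%, and 4 were lower, against 12.7%. Within gates Mxd1 did not move 1 way. In immature neutrophil-like cells it was 131 and 71.2 CPM in MA9 f/f, against 206 and 199 in MA9 Δ/Δ. In promyelocyte-like cells it was 22.5 and 22.3 against 16.7 and 13.5 CPM. In monocyte-like cells it was 30.9 and 31.6 against 29.7 and 24.2 CPM, and in mature neutrophil-like cells 917 and 813 against 811 and 1129 CPM.

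In HM the members and Myc parted. In promyelocyte-like cells Myc was 62.9 CPM with PBS and 12.8 CPM with AraC+Dox, while the members' sum was 7811 and 8419 CPM. In the MA9 libraries Myc in the same gate was 55.3 and 45.3 CPM in f/f and 87.7 and 84.3 CPM in Δ/Δ. Mxd1 was highest in mature neutrophil-like cells of every library, at 811 to 1338 CPM, and 13.5 to 55.6 CPM in promyelocyte-like cells.

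**Figure D5:**
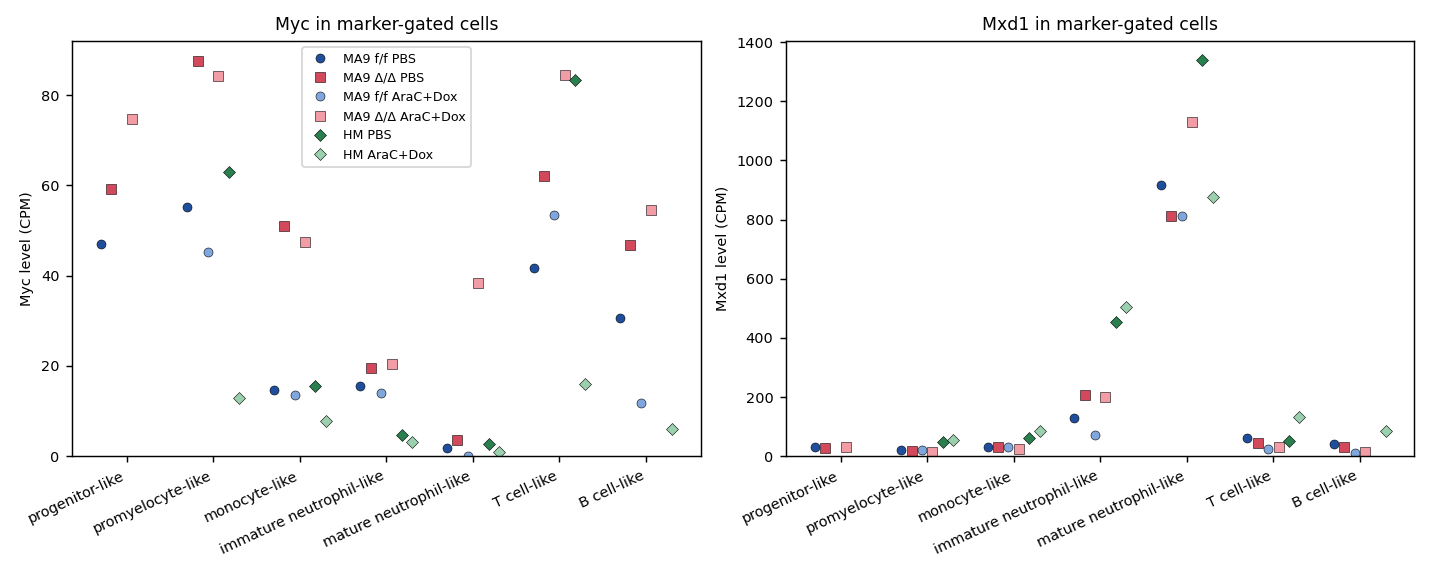
Levels of Myc and of Mxd1 (CPM) in gated cells, 1 point per library with at least 30 cells. Mxd1 reaches 811 to 1338 CPM in mature neutrophil-like cells, and Myc in promyelocyte-like cells is lowest in the HM AraC+Dox library.

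Other genes of the same pathways were read from lists written with earlier results of these data known. Of 85 further ribosome assembly factors, 52 were higher and 0 lower under PBS, where 15.1% of all genes were higher and 8.75% lower. Under AraC+Dox 56 were higher and 0 lower, where 16.6% of all genes were higher and 12.7% lower. Their median log2 ratios were 0.67 and 0.78. Pdcd11, a small subunit processome scaffold, had the largest ratio at 2.26 (2.19 to 2.34) under AraC+Dox, and Grwd1 had 1.31 (1.17 to 1.45) under PBS. In HM 61 of 82 were higher and 0 lower, where 28.2% of all genes were higher and 20.2% lower. Among those at 20 CPM or more the largest ratio was that of Polr1c, a subunit shared by RNA polymerases I and III, at 1.69 (1.43 to 1.96), where Polr1a and Polr1b stood below 0.

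Of 29 other nucleotide synthesis genes 7 were higher and 0 lower under PBS, and 10 higher and 1 lower under AraC+Dox. Of all genes 15.1% and 16.6% were higher, and 8.75% and 12.7% lower. Uck2, a uridine and cytidine kinase, led both pairs at 0.92 (0.84 to 0.997) and 1.64 (1.58 to 1.71). Other polyamine genes gave 0 of 12 higher and 1 lower, then 2 higher and 2 lower. Sat1, which acetylates polyamines for breakdown and export, was lower at -0.69 (-0.72 to -0.66) and -1.06 (-1.09 to -1.03), where Srm and Odc1 were higher. S phase genes gave 2 and 4 of 23 higher and 0 lower in either pair, with median log2 ratios of 0.33 and 0.32. Mitosis genes gave 0 of 12 higher in either pair, 0 lower under PBS and 1 lower under AraC+Dox, with medians of -0.06 and -0.14. The shares of all genes given above (15.1% and 16.6% higher, 8.75% and 12.7% lower) apply to these lists too.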

How the data were processed

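Single-cell RNA of marrow from 6 leukaemic libraries, 1 per group, was used. The values are raw UMI counts per gene and barcode as the authors deposited them, whole numbers without normalization. Cell Ranger 3.0.2 made the MA9 matrices per the file headers, and the submitters' processing notes name it, with mm10, for all libraries. The HM headers name no software. The members and all lists were chosen with earlier results of these data known.

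Counts were summed over kept cells and scaled per 1e6 UMIs (CPM). Ratios carry exact Clopper-Pearson 95% intervals given both counts. PCR duplicates are removed by UMIs, and the intervals cover counting error only. Doublets (Scrublet in scanpy 1.11.5) were kept in the values given and removed in an alternative. The automatic threshold marked under 0.5% of cells in 4 libraries, both HM and both labelled MA9 Δ/Δ. There the mean threshold of the other 2, both labelled MA9 f/f, was used.

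Each cell was scored for each type as the mean over its markers of log2(CP10K + 1) divided by the 99th percentile (at least 0.5), at most 1. It entered the top gate at a score of 0.25 with a margin of 0.05, a rule chosen after seeing the data. Mitotic cells scored at least 0.3 and non-mitotic cells under 0.1 on 12 mitosis genes. Clusters were not used. Sums of at least 30 cells were tested with edgeR 4.0.16 (quasi-likelihood, TMM, filterByExpr, library as block) in R 4.3.3, DESeq2 1.42.0 being an alternative. The mitotic contrast was run in the gate with most libraries on both sides. Calls were tested on simulated data with known fold changes.

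All members could be named, with the 6 largest and 3 smallest absolute ratios per pair, and the 5 largest and 3 smallest fold changes per contrast. For other lists up to 4 genes with the largest ratio at 20 CPM or more, any gene of the MYC network, and Ptpn6 could be named. Alternatives were another scaling, doublet removal, 2-fold, 20 CPM, stricter cell filters, the mean of each cell's CPM, and in the tests another normalization, DESeq2, no filter, stricter gates, no block and each library left out. Gene loci came from GENCODE vM21 (38 of 38 identifiers matched) and promoters from RefSeq. Of 86 other ribosome assembly symbols 85 were found.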

Additional observations from a re-analysis of the deposited data

Results flagged for a closer look

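Under the same labelled contrast, AraC+Dox minus PBS, Wdr43 and Rrp1b went opposite ways in different pairs of libraries, with intervals that exclude 0. They were flagged because their ratios also reached a set minimum fold on both sides. Wdr12 and Nop10, among others, went opposite ways too, but with a smaller ratio on 1 side. Both stood below 0 in the MA9 pair labelled Δ/Δ and above 0 in HM. Wdr43 stood at -0.61 in the MA9 pair labelled f/f, at 0.36 in that labelled Δ/Δ and at 0.95 in HM. Rrp1b stood at -0.34, 0.48 and 0.84 in the same order. Each pair has 1 library on each side, and the difference between pairs was not tested.

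Barcodes removed for their mitochondrial share held signal of the members. In HM PBS, 9316 removed barcodes had a summed member level of 3836 CPM, far above the limit of 0.216 CPM that a count of 0 would allow. Per 1e6 non-mitochondrial UMIs the level was 5100 CPM in the removed barcodes and 1988 in the kept cells of that library. In the other 5 libraries the removed barcodes held 2415 to 4213 CPM.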

How the results depend on the processing

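Counts of members between libraries moved mainly with the fold asked for. At 2-fold, 13 members stayed counted as higher in the MA9 PBS pair labelled deletion and 13 in HM, and 0 as lower in the MA9 f/f treatment pair. In the Δ/Δ treatment pair 3 were higher with median-of-ratios scaling, 1 without doublets and 4 by the mean of each cell's CPM. With that mean 0 were lower in the f/f pair and 2 in HM, where Ctps turned to -0.040. The cause was not tested. Leaving out a library gave these ranges of members lower: 0 to 1 in monocyte-like and progenitor-gate cells and 0 to 1 in promyelocyte-like cells. The progenitor-gate call of 1 lower became 0 with RLE factors and 0 with DESeq2. The promyelocyte-like 0 became 1 under stricter gates and 1 without both libraries in doubt. In each case the gene is Polr1a. Without the replicate block (library), 3 members were higher and 0 lower in mitotic cells. Within immature neutrophil-like cells, alternatives added after seeing the data gave under PBS 1 (stricter gates), 0 (non-mitotic) and 7 (mitotic) higher, and 4 (no doublets), 11 (non-mitotic) and 0 (mitotic) lower. Under AraC+Dox they gave 1 (non-mitotic) and 5 (mitotic) higher, and 4 (stricter), 10 (non-mitotic) and 1 (mitotic) lower. All other counts stayed within 1.5 times of the value given.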

Other observations

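Across the gates, the further ribosome assembly factors moved mostly one way against mature neutrophil-like cells. By edgeR's quasi-likelihood test with Benjamini-Hochberg adjustment over all genes, 81 of 85 were higher in promyelocyte-like, 77 in monocyte-like, 73 in progenitor-gate and 61 in immature neutrophil-like cells, where 43.2%, 40.6%, 35.6% and 32.4% of all genes were. In each gate 0 were lower, also at an unadjusted p under 0.05. In mitotic against non-mitotic immature neutrophil-like cells 25 were higher and 1 lower, where 21.7% of all genes were higher and 23.6% lower. Nucleotide synthesis genes outside the members gave 22 of 29 higher and 2 lower in promyelocyte-like cells, and 15 higher and 1 lower in mitotic cells. In promyelocyte-like cells 43.2% of all genes were higher and 30.8% lower. The polyamine genes were divided, with 8 of 13 higher and 4 lower in promyelocyte-like cells. The MYC network was divided too, with 3 of 10 higher and 5 lower in promyelocyte-like cells and 1 of 9 higher and 4 lower in mitotic cells.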
